A study of Mus musculus with 6 samples.

Results

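The enzymes of heme biosynthesis were followed as 9 genes, taken from the deposited gene table by symbol and ordered by their place in the pathway: Slc25a38, Alas1, Alas2, Alad, Uros, Urod, Cpox, Ppox and Fech. The table holds 23997 gene symbols, and all 9 of these genes were among the 15662 genes tested. The study sequenced RNA of hematopoietic stem and progenitor cells (HSPCs) from the bone marrow of C57BL/6 mice aged 6 to 8 weeks, sorted as Lin-Sca1+cKit+ (LSK) cells, which lack the surface markers of mature blood cells. There were 3 Mirc11-/- libraries, from mice without the Mirc11 microRNA cluster, and 3 Wildtype libraries, each from pooled RNA of 3 to 4 mice, with no treatment and 1 batch date for all 6. The p-values measure the spread between these pools only. The gate is that of the labels and methods, and a legend of the study gives Sca1- cells in its place. The table gives, for each gene and library, its reads after division by the library's size factor, and these values are written as normalized counts.

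Heme is an iron porphyrin that is needed by every cell for cytochromes and catalases, and in large amounts by erythroid cells for hemoglobin. Its synthesis starts in the mitochondrion with the joining of glycine and succinyl-CoA, passes through the cytosol, and ends in the mitochondrion with the insertion of iron. The starting step exists in a housekeeping form, Alas1, which heme itself holds down, and an erythroid form, Alas2, which is switched on with the GATA1 program. The remaining enzymes are made in most cells and increase when erythroid precursors mature.

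The deleted cluster holds the genes Mir23a, Mir27a and Mir24-2, whose reads were checked before the comparison. The Wildtype libraries together held 51 reads on Mir23a, 54 on Mir27a and 73 on Mir24-2, while each Mirc11-/- library had 0 normalized counts on all 3. The mature microRNAs are shown, from RefSeq on GRCm38.p6, because the seed in capitals, bases 2 to 8, was searched for in the heme genes.
miR-23a-3p: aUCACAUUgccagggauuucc
miR-27a-3p: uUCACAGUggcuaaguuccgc
miR-24-3p: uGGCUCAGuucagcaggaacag
A 7-base match to the miR-23a seed was found in the longest annotated 3′ UTR of 0 of the 9 heme genes, against 16.9% of the 13617 tested genes that have an annotated 3′ UTR. The miR-27a seed had 1 match in Fech and 0 in the other 8 genes, against 18.3% of all genes. The miR-24 seed had 1 match in Uros and 0 in the others, against 20.5%. A match is a description of the letters and was not tested as a site.

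None of the 9 heme genes passed the limma test at an adjusted p of 0.05 with all 6 libraries, and none by edgeR or DESeq2. Over all genes limma called 5 of 15662, or 0.0319%. At an unadjusted p under 0.05, limma gave 2 of the 9 as higher in Mirc11-/- HSPCs, Alad and Urod, against 4.15% of all genes, and 0 as lower. The log2 fold change, Mirc11-/- minus Wildtype on log2(value + 1), was above 0 for 8 of the 9, with a median of 0.48, where the median of all genes was 0.0025 and 50.5% of them were above 0. Every Mirc11-/- library was above every Wildtype library for 0 of the 9, against 6.42% of all genes. Mirc11-/- libraries 1 and 2 both stood above every Wildtype library for 8 of the 9 heme genes, all but Alas1, against 19.5% of all genes. Mirc11-/- library 3 stood inside the Wildtype range for 6 of the 9, below it for 3 and above it for 0. In bulk RNA from sorted cells, more cells of a type and more RNA per cell cannot be told apart.

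**Figure D1:**
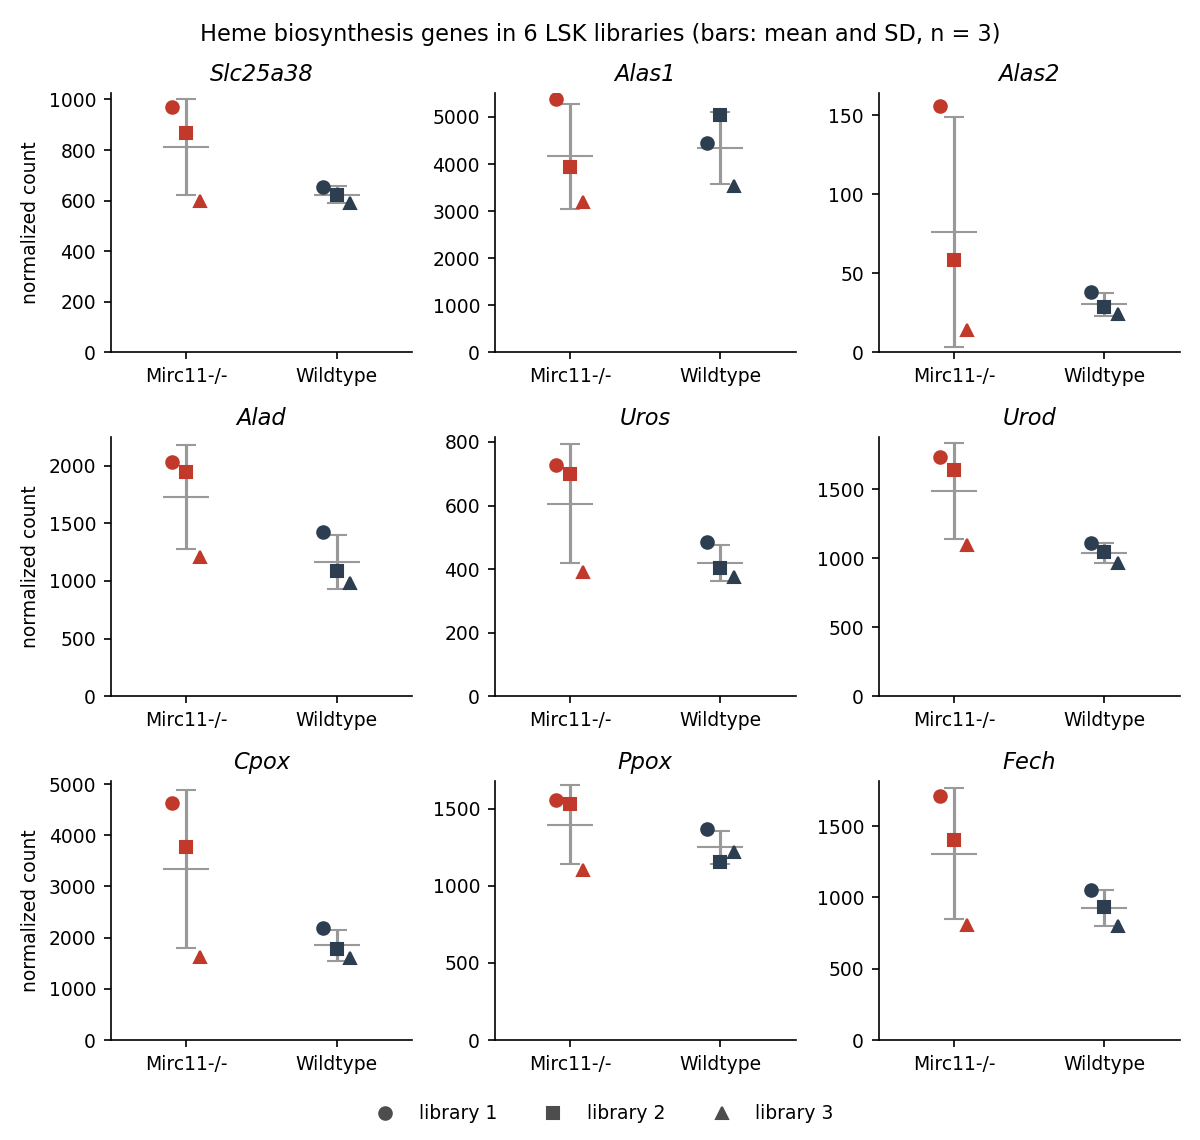
Normalized counts of the 9 heme biosynthesis genes, in pathway order, with Mirc11-/- libraries on the left and Wildtype libraries on the right of each panel. Symbols give the library number and grey bars the mean and SD (n = 3 each); in every panel but that of Alas1, Mirc11-/- libraries 1 and 2 lie above all Wildtype libraries and library 3 does not.

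Slc25a38, the mitochondrial carrier that brings in glycine for the starting step, lies on chromosome 9 from 120110377 to 120126093 in RefSeq's annotation of GRCm38.p6, to which the positions of all 9 genes refer. It had 968, 869 and 601 normalized counts in the Mirc11-/- libraries 1, 2 and 3, against 656, 624 and 590 in Wildtype libraries 1, 2 and 3. Libraries 1 and 2 of the Mirc11-/- mice were the high ones, and library 3 lay within the Wildtype range. On the log2 scale the fold change was 0.36 (SE 0.17), with an adjusted p of 0.609 by limma.

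Alas1, the housekeeping aminolevulinate synthase, lies on chromosome 9 from 106233455 to 106247954. It had 5381, 3931 and 3190 normalized counts in Mirc11-/- libraries, against 4456, 5042 and 3524 in Wildtype libraries. The genotypes were interleaved, with Mirc11-/- library 1 the highest and Mirc11-/- library 3 the lowest of the 6. Its fold change on the log2 scale was -0.077 (SE 0.19), with an adjusted p of 0.934 by limma and a 95% confidence interval from -0.51 to 0.36. Alas1 was the only member with a negative value, and its sign turned to 0.10 without Mirc11-/- library 3 and to 0.039 without Wildtype library 2.

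Alas2, the erythroid aminolevulinate synthase, lies on chromosome X from 150547417 to 150570622. It had 156, 58.2 and 14.1 normalized counts in Mirc11-/- libraries, from 165, 56 and 14 reads. The Wildtype libraries had 38.5, 28.8 and 24.3, from 39, 29 and 24 reads. Alas2 had the widest range of the 9 genes: Mirc11-/- library 1 stood at 5.11 times the Wildtype mean, library 2 at 1.91 times and library 3 at 0.462 times. The Mirc11-/- libraries thus lay on both sides of the Wildtype range. The log2 fold change was 0.75 (SE 0.71), with a 95% confidence interval from -0.87 to 2.36 and an adjusted p of 0.790 by limma. It was 1.32 by edgeR and by DESeq2, with adjusted p of 0.623 and 0.558, and -0.053 by limma without Mirc11-/- library 1.

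Alad, which joins aminolevulinate molecules into porphobilinogen in the cytosol, lies on chromosome 4 from 62505984 to 62520063. It had 2034, 1946 and 1211 normalized counts in Mirc11-/- libraries, against 1428, 1090 and 978 in Wildtype libraries. Mirc11-/- libraries 1 and 2 were the highest, and library 3 lay below Wildtype library 1 only. For Alad the log2 fold change was 0.55 (SE 0.21), with a 95% confidence interval from 0.081 to 1.02 and an adjusted p of 0.546 by limma. The study's supplementary list of TNF-regulated genes gives Alad a negative log2 fold change, opposite in sign to the value here. The reason for the difference was not tested.

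Uros, the synthase that closes the porphyrin ring as uroporphyrinogen III, lies on chromosome 7 from 133686142 to 133710467. It had 728, 699 and 390 normalized counts in Mirc11-/- libraries, against 484, 402 and 374 in Wildtype libraries. For Uros the log2 fold change was 0.48 (SE 0.23), with an adjusted p of 0.614 by limma. Urod, which removes carboxyl groups to give coproporphyrinogen, lies on chromosome 4 from 116989965 to 116994436. It had 1732, 1642 and 1094 normalized counts in Mirc11-/- libraries, against 1113, 1043 and 965 in Wildtype libraries. In both genes Mirc11-/- library 3 lay within the Wildtype range and the other 2 above it. The log2 fold change of Urod was 0.49 (SE 0.16), with a 95% confidence interval from 0.12 to 0.86 and an adjusted p of 0.502 by limma.

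Cpox, the oxidase that makes protoporphyrinogen in the mitochondrial intermembrane space, lies on chromosome 16 from 58670208 to 58680391. It had 4635, 3770 and 1632 normalized counts in Mirc11-/- libraries, against 2188, 1780 and 1594 in Wildtype libraries. Mirc11-/- libraries 1 and 2 stood at 2.50 and 2.03 times the Wildtype mean and library 3 at 0.880 times. Of the 9 genes Cpox had the highest fold over the Wildtype mean in library 2, and only Alas2 was higher in library 1. For Cpox the log2 fold change was 0.73 (SE 0.33), with an adjusted p of 0.60 by limma.

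Ppox, which oxidizes protoporphyrinogen to protoporphyrin, lies on chromosome 1 from 171276991 to 171281193. It had 1557, 1529 and 1103 normalized counts in Mirc11-/- libraries, against 1368, 1156 and 1220 in Wildtype libraries. Here Mirc11-/- library 3 was the lowest of the 6, and libraries 1 and 2 stood at 1.25 and 1.22 times the Wildtype mean. The log2 fold change was 0.15 (SE 0.14), with an adjusted p of 0.788 by limma.

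Fech, the ferrochelatase that inserts iron and itself holds an iron-sulfur cluster, lies on chromosome 18 from 64456542 to 64489098. It had 1712, 1402 and 808 normalized counts in Mirc11-/- libraries, against 1050, 934 and 797 in Wildtype libraries. Mirc11-/- library 3 was within the Wildtype range, close to its lower end. For Fech the log2 fold change was 0.44 (SE 0.24), with an adjusted p of 0.639 by limma.

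The order of the libraries was much the same from gene to gene. Mirc11-/- library 1 was the highest of the 6 for 9 of the 9 heme genes, against 25.5% of all genes. Among the Wildtype libraries, library 1 was highest for 8 and library 3 lowest for 8 of the 9. The SD of log2(value + 1) was greater among Mirc11-/- than among Wildtype libraries for 9 of 9, against 60.8% of all genes, for instance 0.80 against 0.23 for Cpox and 1.70 against 0.32 for Alas2. Within the Wildtype libraries the heme genes were close together, with an SD of 0.077 for Slc25a38 and 0.10 for Urod at the low end.

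**Figure D2:**
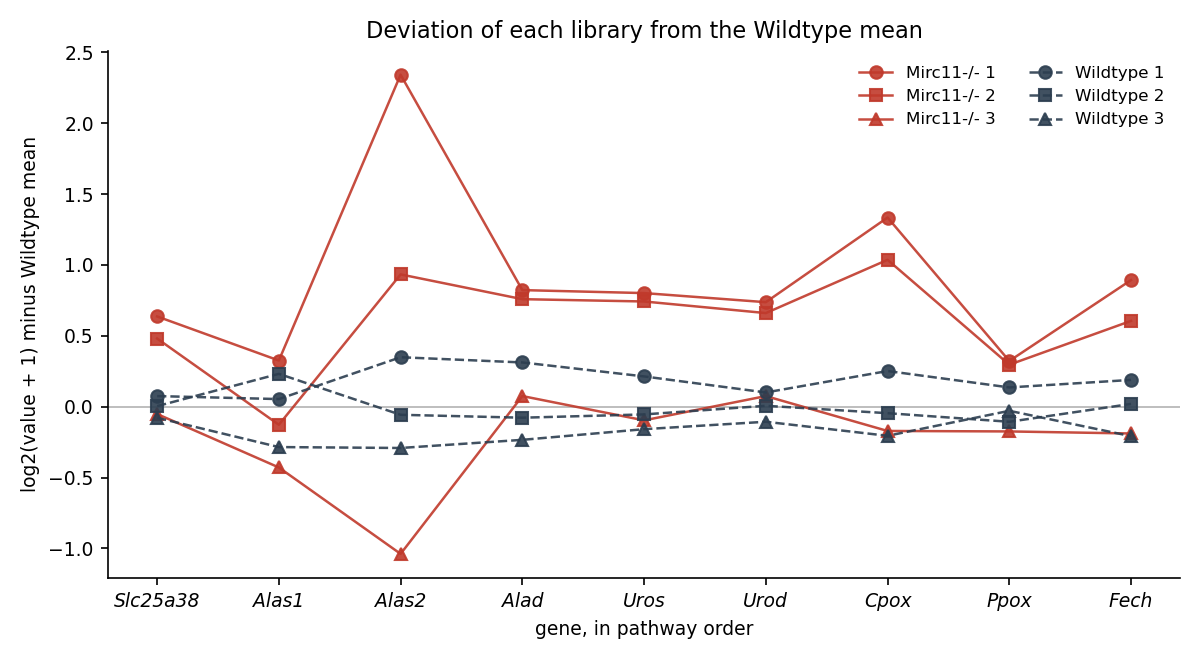
Deviation of each library from the Wildtype mean on log2(value + 1), with the 9 heme biosynthesis genes in pathway order on the horizontal axis, Mirc11-/- libraries in red and Wildtype libraries in blue. Mirc11-/- libraries 1 and 2 run above the Wildtype lines at every gene but Alas1, peaking at Alas2 (2.34 and 0.93) and Cpox (1.33 and 1.04), while Mirc11-/- library 3 runs among the Wildtype lines except at Alas1, Alas2 and Ppox, where it is lowest.

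Of the 6 libraries left out in turn, 1 changed the calls of heme genes. Without Mirc11-/- library 3, limma called 6 of the 9 heme genes higher and 0 lower, against 1.94% and 1.46% of the 15633 genes then tested. Without any one of the other 5 libraries it called 0. The 6 genes that rose in that fit were Cpox, by 1.18 on the log2 scale (adjusted p of 0.00794 by limma), Urod, Uros, Fech, Alad and Slc25a38, with log2 fold changes of 0.56 to 0.79 for the last 5 and adjusted p up to 0.0231 by limma. Alas2 was at 1.64 (SE 0.41) with an adjusted p of 0.0617 by limma, Ppox at 0.31 with 0.112 and Alas1 at 0.10 with 0.785. The median of the 9 was 0.75, where that of all genes was 0.0031. Count models on the same 5 libraries, chosen after these values were seen, called 7 of the 9 each, the same 6 and Alas2, against 2.12% of all genes called higher by edgeR and 3.5% by DESeq2. Their adjusted p for Alas2 was 0.0429 by edgeR and 0.00294 by DESeq2.

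**Figure D3:**
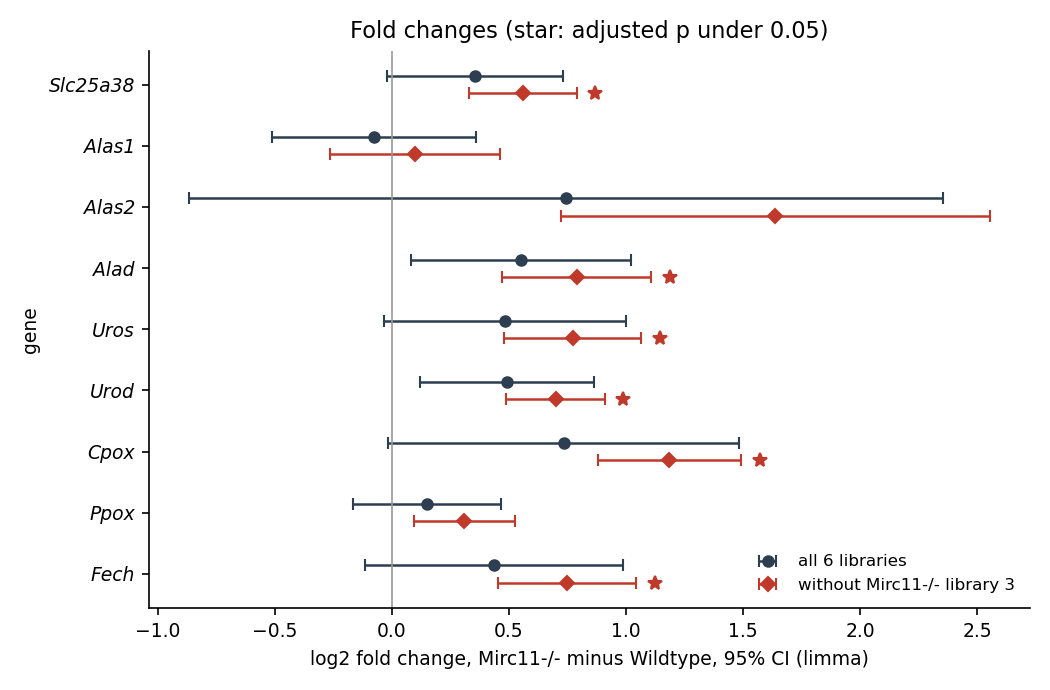
Log2 fold change of each heme biosynthesis gene with its 95% confidence interval by limma, Mirc11-/- minus Wildtype, from all 6 libraries (blue circles) and without Mirc11-/- library 3 (red diamonds). A star marks an adjusted p under 0.05: 0 of 9 with all libraries and 6 of 9 without library 3, where the intervals of Cpox and Urod narrow around 1.18 and 0.70.

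The starting step was compared within libraries, where size factors cancel. Per kilobase of the longest GENCODE transcript linked to RefSeq, Alas2 was 4.84, 2.47 and 0.737% of Alas1 in Mirc11-/- libraries, against 1.44, 0.953 and 1.15% in Wildtype libraries. Alas1 was thus the main form in all 6 libraries, and Mirc11-/- library 3 had the lowest share of Alas2. The log2 ratio was higher by 0.83 in Mirc11-/- libraries, which an exact two-sided permutation test did not separate (p = 0.4, n = 3 each, where 0.1 is the smallest p possible). Set against Alas1 in the same way, 6 of the other 8 members, all but Alas2 and Ppox, had a higher ratio in every Mirc11-/- library, library 3 included, than in every Wildtype library, against 4.12% of all genes. The ratio of Cpox to Alas1 was 0.861, 0.959 and 0.512 in Mirc11-/- libraries, against 0.491, 0.353 and 0.452 in Wildtype libraries. That of Urod to Alas1 was 0.322, 0.418 and 0.343 in Mirc11-/- libraries, against 0.250, 0.207 and 0.274 in Wildtype libraries. In Mirc11-/- library 3 this came with the lowest Alas1 of all libraries, not with high values of the other enzymes. Each of the 6 exact permutation tests gave p = 0.1, the smallest possible, and 0.133 after adjustment over the 8 ratios, which were chosen after the values were seen.

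Levels of different enzymes can be compared per kilobase. In Wildtype libraries the order was Alas1 at 1277 ± 225 normalized counts per kilobase, Alad at 934 ± 188, Urod at 699 ± 49.96, Ppox at 685 ± 59.6, Cpox at 599 ± 98.2, Slc25a38 at 348 ± 18.4, Uros at 238 ± 32.5, Fech at 141 ± 19.3 and Alas2 at 14.98 ± 3.55 (SD, n = 3). The neighbours Alas1 and Alad overlapped between libraries, as did Urod with Ppox and Ppox with Cpox, and the other neighbours did not. Within each Wildtype library, Alas1 stood above Alad and Ppox above Cpox, while Urod and Ppox changed order between libraries. In Mirc11-/- libraries Alad led at 1388 ± 362, followed by Alas1 at 1226 ± 328, Cpox at 1080 ± 499, Urod at 1000.1 ± 232 and Ppox at 767 ± 140 (SD, n = 3), all of which overlapped with their neighbours. Slc25a38, Uros, Fech and Alas2 kept the last 4 places, in that order, at 454 ± 106, 344 ± 106, 199 ± 69.9 and 37.4 ± 35.7 (SD, n = 3), with overlap between Slc25a38 and Uros and between Uros and Fech. Within each Mirc11-/- library, Urod stood above Ppox, Slc25a38 above Uros and Uros above Fech. Alad also stood above Alas1 in each by these lengths, at 1631 against 1583, 1561 against 1156 and 972 against 938. The order of Alas1 with Cpox and of Cpox with Urod changed between libraries. The values rest on lengths of the longest GENCODE transcripts linked to RefSeq, of 1247 bases for Alad to 6571 bases for Fech. With the shortest such transcript of 1045 bases, Uros stood at 402 in Wildtype libraries, above Slc25a38.

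**Figure D4:**
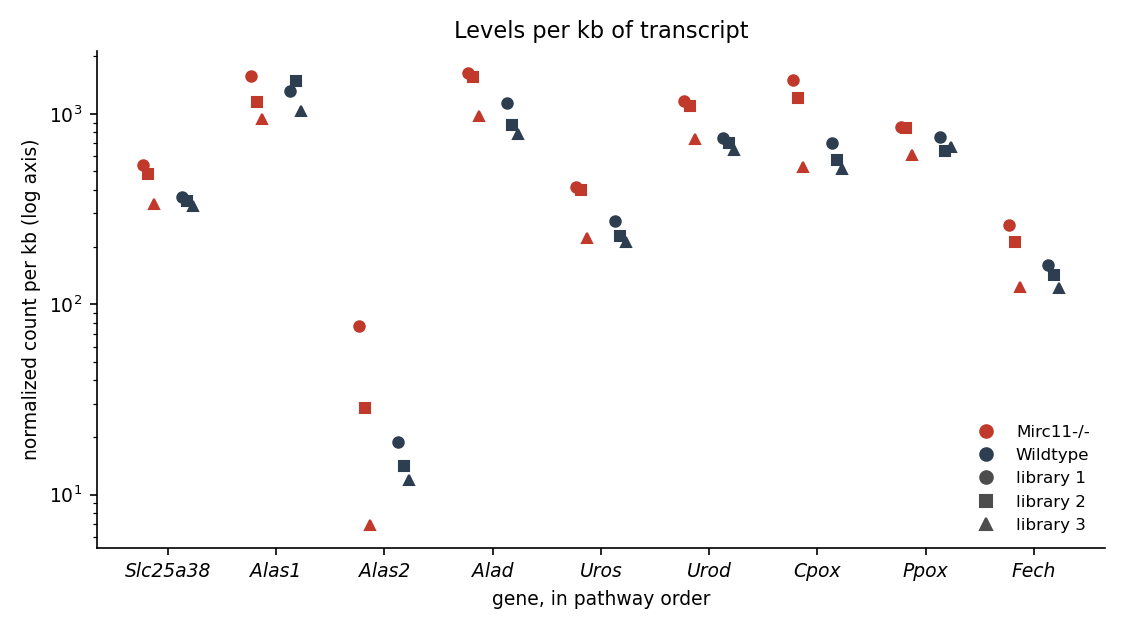
Normalized counts per kilobase of the longest GENCODE transcript linked to RefSeq, on a log axis, for the 9 heme biosynthesis genes, Mirc11-/- libraries in red on the left and Wildtype libraries in blue on the right of each gene. Alas2 is the lowest gene in every library, between 6.92 and 76.6 in Mirc11-/- and between 11.9 and 18.9 in Wildtype libraries, and Alas1 and Alad are the highest in Wildtype libraries.

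Some reads on these genes are uncertain, because exons of other genes lie on the opposite strand and the sources used here do not say that counting used strand. Apex2 shares 311 bases of exon with Alas2 and had 222, 248 and 228 normalized counts in Mirc11-/- libraries, against 209, 197 and 216 in Wildtype libraries, with no such spread as Alas2. B4galt3 shares 791 bases with Ppox and had 853, 843 and 793 in Mirc11-/- libraries, against 770, 827 and 934 in Wildtype libraries. Gpr15 shares 204 bases with Cpox and stayed at or under 19.9 normalized counts in every library. An antisense transcript overlaps 351 bases of Alas1 and has no value in the table.

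Many erythroid genes carry GATA1 sites and CACCC boxes near their start, and the 250 bases upstream of the annotated starts were searched for both. RefSeq on GRCm38.p6 gave 11 such windows for 8 of the 9 members. The letters GATAA, on either strand, were found in 3 of the 11 windows (27.3%), of Alas2, Cpox and Uros, against 22.6% of 32851 windows of all genes. The letters CCNCNCCC, on either strand, were found in 7 of the 11 windows (63.6%), against 45.9% of all. With 11 windows, neither share sets the members apart. The 150 bases upstream of the 3 starts are shown, 5′ to 3′, since they set the erythroid synthase and Cpox, the genes with the widest spread, beside Uros, and the match is in capitals as TTATC, the reverse complement of GATAA.
Alas2 (chrX:150547267-150547416, plus strand): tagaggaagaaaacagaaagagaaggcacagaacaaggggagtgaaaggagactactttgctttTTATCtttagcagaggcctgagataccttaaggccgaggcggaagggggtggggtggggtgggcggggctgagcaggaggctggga
Cpox (chr16:58670058-58670207, plus strand): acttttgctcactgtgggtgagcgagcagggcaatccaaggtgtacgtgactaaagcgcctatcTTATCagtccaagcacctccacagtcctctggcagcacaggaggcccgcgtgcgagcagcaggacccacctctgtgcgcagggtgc
Uros (chr7:133702501-133702650, minus strand): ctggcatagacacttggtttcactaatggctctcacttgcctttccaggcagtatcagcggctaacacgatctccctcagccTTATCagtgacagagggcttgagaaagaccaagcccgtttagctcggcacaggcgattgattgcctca
The match begins 86 bases upstream of the start in both Alas2 and Cpox and 68 bases upstream in Uros. Uros has another annotated start with no match in its window, and it is known for separate housekeeping and erythroid promoters, which the gene counts do not separate. The window of Alas2 also holds 4 matches to CCNCNCCC, while those of Cpox and of this start of Uros hold 0.

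Genes around the pathway were described from lists of transporters, iron handling and related enzymes. In none of these 6 lists did limma call a gene with all 6 libraries, and edgeR called 0 too, whereas DESeq2 called 1, Ciapin1. For that DESeq2 fit the share of all genes called was not counted. Of 17 genes of mitochondrial heme and iron transport, 2 were higher at an unadjusted p under 0.05 by limma, against 4.15% of all genes. Of the 17, 13 had a positive log2 fold change, against 50.5% of all genes, and the median was 0.11. Pgrmc2, a membrane protein that carries heme out of the mitochondrion, had 1270.1, 1269 and 1077 normalized counts in Mirc11-/- libraries, against 967, 1045 and 949 in Wildtype libraries. It did not overlap between genotypes (log2 fold change 0.28, adjusted p of 0.502 by limma). Every Mirc11-/- library stood above every Wildtype library for 2 of the 17, Pgrmc2 and Clpx, against 6.42% of all genes. Tspo2, an erythroid relative of the translocator protein Tspo, had 412, 453 and 186 in Mirc11-/- libraries, against 258, 156 and 97.3 in Wildtype libraries (1.04, adjusted p of 0.566 by limma). Abcb10, a mitochondrial transporter needed for hemoglobin synthesis, had 2367, 1915 and 1159 in Mirc11-/- libraries, against 1394, 1234 and 1130 in Wildtype libraries. Abcb6, a porphyrin transporter, had 849, 828 and 335 in Mirc11-/- libraries, against 511, 385 and 360 in Wildtype libraries. The last 3 had the same high libraries 1 and 2 and a library 3 at or near the Wildtype range. Without library 3, limma called 5 of the 17 higher and 0 lower, against 1.94% and 1.46% of all genes.

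Among 12 tested genes of heme export, import and breakdown, limma gave 2 higher and 0 lower before adjustment (p under 0.05), where 4.15% of all genes were higher. The median log2 fold change of the list was 0.063. Hebp1, a heme-binding protein, had 741, 615 and 297 normalized counts in Mirc11-/- libraries, against 341, 271 and 241 in Wildtype libraries (0.87, adjusted p of 0.512 by limma). Blvrb, a biliverdin reductase of red cells, had 1636, 1445 and 621 in Mirc11-/- libraries, against 890, 686 and 492 in Wildtype libraries. The export pump Abcg2 was at 0.30 and the reductase Blvra at 0.25. Of this list 2 genes, Hebp1 and Blvrb, were called higher without Mirc11-/- library 3, against 1.94% of all genes.

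Of 20 genes of iron uptake, storage and sensing, limma gave 1 higher and 1 lower before adjustment (p under 0.05), where 4.15% of all genes were higher. The share of all genes lower at this p was not counted, so the 1 lower gene has no such comparison. The median log2 fold change of the list was 0.20. Ireb2, an iron-sensing regulator of mRNAs, had 2213, 2152 and 1935 normalized counts in Mirc11-/- libraries, all above the 1683, 1822 and 1803 in Wildtype libraries (0.24, adjusted p of 0.502 by limma). Such a separation was seen for 2 of the 20, Ireb2 and Aco1, against 6.42% of all genes. Ftl1, the ferritin light chain, had 8266, 2596 and 4072 in Mirc11-/- libraries, against 7760, 7367 and 7834 in Wildtype libraries (-0.79, adjusted p of 0.592 by limma). It is a gene with many near copies, which makes its count uncertain. The iron regulatory protein Aco1 was at 0.20 and the iron importer Slc11a2 at 0.49. As for Alad, the study's supplementary list gives Slc11a2 a negative log2 fold change, opposite in sign to the value here. Without Mirc11-/- library 3, 4 of the 19 genes then tested were called higher and 0 lower, against 1.94% and 1.46% of all genes.

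Iron-sulfur cluster assembly supplies the cluster of ferrochelatase. Of its 17 genes, limma gave 3 higher and 0 lower before adjustment (p under 0.05), where 4.15% of all genes were higher. The median log2 fold change of the list was 0.068. Ciapin1, a cytosolic assembly factor, had 1299, 1487 and 1460 normalized counts in Mirc11-/- libraries, against 961, 995 and 844 in Wildtype libraries. It differed from the heme enzymes in that Mirc11-/- library 3 stood with the other 2, and the genotypes did not overlap. Its log2 fold change was 0.60 (SE 0.10), with an adjusted p of 0.258 by limma and 0.000572 by DESeq2. Every Mirc11-/- library stood above every Wildtype library for 2 of the 17, Ciapin1 and Iba57, against 6.42% of all genes. Iba57 was at 0.39, Glrx5, which is needed for heme synthesis in zebrafish, at 0.41 and Isca1 at 0.36, all with libraries 1 and 2 highest. These 3 with Ciapin1 were the 4 called higher without library 3, against 1.94% of all genes.

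The supply of glycine and succinyl-CoA had a median log2 fold change of 0.026 over 10 genes. By limma 1 was higher and 1 lower before adjustment (p under 0.05), where 4.15% of all genes were higher, and 0 were called without Mirc11-/- library 3. The share of all genes lower at this p was not counted. Shmt1, which interconverts serine and glycine, had 923, 851 and 1018 normalized counts in Mirc11-/- libraries, against 1242, 1275 and 961 in Wildtype libraries (-0.31, adjusted p of 0.573 by limma). The glycine transporter Slc6a9 had 103, 71.7 and 40.2 in Mirc11-/- libraries, against 46.3, 31.8 and 32.4 in Wildtype libraries (0.86, adjusted p of 0.576 by limma). Shmt2 was at -0.12 and Dlst at 0.13. Heme proteins and the enzymes that attach heme or make heme a had a median of -0.032 over 9 genes. Of these 1, Cybb, was higher at an unadjusted limma p under 0.05, against 4.15% of all genes. It was also called without library 3, against 1.94% of all genes. Cybb, the heme-binding subunit of the phagocyte oxidase, had 1721, 1418 and 911 in Mirc11-/- libraries, against 1020, 922 and 813 in Wildtype libraries (0.51). As for Alad, the study's supplementary list gives Cybb a negative log2 fold change, opposite in sign to the value here. Hccs was at -0.12, Cox10 at -0.097 and Cyba at 0.079.

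Erythroid markers moved with the heme genes. The summed normalized counts of 7 defining erythroid markers (Klf1, Gata1, Slc4a1, Epor, Hba-a1, Hbb-bs and Hbb-bt) were 7051, 5073 and 1788 in Mirc11-/- libraries, against 2707, 1709 and 1373 in Wildtype libraries. None of the 7 was at 0. In all 7, Mirc11-/- libraries 1 and 2 were above every Wildtype library, against 19.5% of all genes. Klf1, the erythroid transcription factor, had 1724, 1762 and 604 in Mirc11-/- libraries, against 922, 575 and 451 in Wildtype libraries. Hbb-bs, an adult beta globin whose counts are the same as those of Hbb-b1, had 625, 277 and 40.2 in Mirc11-/- libraries, against 91.7, 57.6 and 36.5 in Wildtype libraries. Of the full list of 28 tested erythroid markers, limma called 0 with all libraries. Before adjustment 13 were higher (limma p under 0.05), against 4.15% of all genes. Without Mirc11-/- library 3, limma called 24 higher, against 1.94% of all genes. With all 6 libraries DESeq2 called Hemgn, Tal1 and Xk higher (adjusted p of 0.0198, 0.0341 and 0.0419 by DESeq2). The share of all genes that DESeq2 called with 6 libraries was not counted. For 5 of the 28, every Mirc11-/- library, library 3 included, was above every Wildtype library, against 6.42% of all genes. The part of such cells in the values of the heme genes was not tested.

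**Figure D5:**
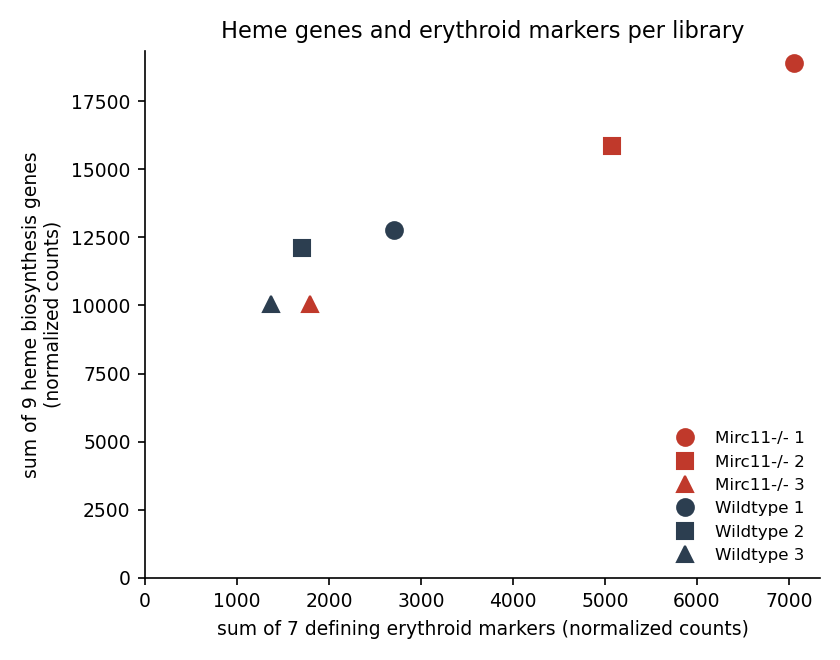
Sum of the 9 heme biosynthesis genes on the vertical axis against the sum of 7 defining erythroid markers on the horizontal axis, both in normalized counts, 1 point per library (Mirc11-/- red, Wildtype blue). Mirc11-/- libraries 1 and 2, at 18904 and 15845 counts of heme genes, stand apart from the other 4 libraries, which lie between 10043 and 12782.

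Marker sums of other cell types were taken in the same way. The summed stem and progenitor markers of the LSK gate were 24014, 30709 and 42229 in Mirc11-/- libraries, against 36112, 36477 and 42815 in Wildtype libraries, with libraries 1 and 2 of the Mirc11-/- mice lowest. Ly6a, which encodes the gated antigen Sca1, had 374, 481 and 534 in Mirc11-/- libraries, against 444, 498 and 683 in Wildtype libraries. Without Mirc11-/- library 3, limma called 2 of the 9 gate markers lower and 0 higher, against 1.46% and 1.94% of all genes. Cd34 had 7475, 9009 and 13380 in Mirc11-/- libraries, against 12410, 12883 and 13794 in Wildtype libraries (-0.43, adjusted p of 0.592 by limma, and -0.67 with 0.0115 without library 3). Flt3 had 5614, 6643 and 10820 in Mirc11-/- libraries, against 9449, 9855 and 12040 in Wildtype libraries (-0.49 with 0.597 by limma, and -0.77 with 0.0122 without library 3). Summed mast cell and basophil markers were 3522, 2129 and 1646 in Mirc11-/- libraries, against 1851, 1812 and 1977 in Wildtype libraries. As for Alas2, Mirc11-/- libraries 1 and 2 were the highest and library 3 the lowest of the 6. Summed megakaryocyte markers were 3201, 4587 and 4842 in Mirc11-/- libraries, against 3852, 2841 and 4166 in Wildtype libraries. Summed neutrophil and monocyte markers were 99964, 90689 and 69037 in Mirc11-/- libraries, against 91989, 85326 and 73087 in Wildtype libraries, with Mirc11-/- library 1 highest and library 3 lowest. The part of these cell types in the values of the heme genes was not tested. Summed markers of the lineage gate were 5479, 6116 and 7258 in Mirc11-/- libraries, against 6627, 6930.1 and 8023 in Wildtype libraries. Reads in genes were 15029379 to 17051541 per Mirc11-/- library and 15772826 to 16250826 per Wildtype library.

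As a description over 6 libraries, the heme genes other than Alas1 went together. Pearson's r between them on log2(value + 1) was 0.83 (Alas2 with Alad) to 0.996 (Slc25a38 with Cpox), whereas Alas1 had r of 0.41 (Urod) to 0.73 (Alas2) with the others. The points share 2 libraries, Mirc11-/- 1 and 2, that stand far from the rest. Over the other 4 libraries, r of Alas2 with the other members was 0.046 (Urod) to 0.85 (Ppox). That of Alas1 was 0.16 (Urod) to 0.80 (Alas2), so these 4 libraries did not set Alas1 apart from Alas2. Among 13200 other genes with a mean of at least 10, the 5 most like Alas2 were Cdc6, Slc31a1, Crat, Ythdc2 and Pnpt1, with r of 0.997 to 0.993. Of the 5 most like Alas1, 4 were Clec12a, Fam49b, Wbscr16 and Hexa, with r of 0.998 to 0.992. Clec12a, a receptor of myeloid cells, had 4883, 4147 and 3647 normalized counts in Mirc11-/- libraries, against 4398, 4787 and 3836 in Wildtype libraries, the same order of libraries as Alas1. With 6 points and so many genes compared, an r of this size does not by itself set a gene apart.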

How the data were processed

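RNA-seq of LSK cells from 3 Mirc11-/- and 3 Wildtype pools was analysed, with groups from the submitters' labels. STAR and Cufflinks are named both in the study's supplementary methods, which add DE-seq and give the human build hg19, and in the submitters' processing notes, which give mm10. Mouse gene symbols are used throughout, and tool versions were not stated. The authors deposited 1 table whose name says FPKM, but the values are a signal: the reads of each gene over the library's size factor. Of the values above 0, 100% were whole multiples of the value of 1 read, within a tolerance of 0.001 that widened with the read count. In 2 libraries this value is so near 1 that it differs little from plain rounding. The design had been written for normalized values, so limma on log2(value + 1) stayed the main test and count models were alternatives.

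A mean value of at least 1 over the libraries used was required of a gene. limma 3.58.1 (R 4.3.3) was run with a mean-variance trend, and p-values were two-sided and adjusted by Benjamini-Hochberg over every gene tested. edgeR 4.0.16 and DESeq2 1.42.0 used the recovered reads. limma, edgeR and DESeq2 were each tested on simulated counts of all 6 libraries. The fits with a library left out and the other alternatives were not tested in this way. Exons, 3′ UTRs and the lengths of transcripts that GENCODE links to RefSeq came from GENCODE M21 (GRCm38), and promoters and microRNAs from RefSeq. The members and lists were chosen with earlier results of these data known. Named genes were the 9 members, the 4 tested genes of smallest limma p in each list around the pathway, defining erythroid markers and the 5 genes most like Alas2 and Alas1. Ly6a, Cd34 and Flt3 were added to describe the gate, and overlapping genes for their shared exons. Hemgn, Tal1 and Xk were added as erythroid markers that DESeq2 called with all libraries. A few genes that fit the rule or the lists are not reported here. Hemoglobin genes with the same counts were counted once. Besides the count models, pseudocounts of 0.1 and 0.5, no filter, a filter of 10, TMM, median-ratio and quantile scaling, no trend, a replicate block and leaving out each library were tried. Depth was 15029379 to 17051541 reads in genes.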

Additional observations from a re-analysis of the deposited data

How the results depend on the processing

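The absence of calls among the 9 heme genes was the same under both pseudocounts, no filter, a filter of 10, the 3 scalings, limma without a trend, edgeR, DESeq2 and the replicate block, with 0 genes called. Leaving out 1 library gave 0 to 6 genes called higher, with 6 only without Mirc11-/- library 3, and 0 lower. On those 5 libraries edgeR and DESeq2, added after seeing the data, called 7 each. In the 6 lists around the pathway, 0 genes were called in the planned fit, 1 by DESeq2, 0 to 16 on leaving out 1 library (16 without Mirc11-/- library 3), and then 17 by edgeR and 20 by DESeq2. Without that library, 1.94% of all genes were called higher by limma, 2.12% by edgeR and 3.5% by DESeq2. The share was not counted for DESeq2 with all libraries. The cause was not tested. The log2 fold change of Alas1, -0.077 with all libraries, ran from -0.28 (without Mirc11-/- library 1) to 0.10 (without Mirc11-/- library 3, also by edgeR and DESeq2), and was 0.039 without Wildtype library 2. By limma the log2 fold change of Alas2 ran from -0.053 (without Mirc11-/- library 1) to 1.64 (without Mirc11-/- library 3), where edgeR gave 1.80 and DESeq2 1.81. The log2 difference of the Alas2 to Alas1 ratio ran from 0.21 to 1.57 on leaving out 1 library and was 0.83 with values not divided by length. Scaling moved no member's direction. Over all tested genes, the deviations of same-numbered libraries had r of 0.066, -0.063 and 0.097. Such values do not settle whether the numbers pair the libraries. With the replicate block 0 of the 9 were called, though limma's adjusted p fell, for instance from 0.546 to 0.105 for Alad. For Urod it fell from 0.502 to 0.133, and Alas1 had the highest with the block, 0.813. With 3 libraries a genotype, an exact test cannot go under 0.1.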
